A study of Drosophila melanogaster with 4 samples.

Results

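The mitochondrial genome contributed 1285 of the 232302 positions in the deposited list of RNA 5′ ends from Drosophila melanogaster embryos, which is 0.553% of the positions and 0.453% of the summed coverage. Its members were chosen by chromosome alone, as all listed positions on chromosome M of dm6, on either strand. The embryos were of the Canton S wild-type strain, 0 to 12 h old and collected from population cages, so each library pooled whole embryos of mixed ages. Capped small RNA-seq (csRNA-seq) was run on 3 libraries, and 1 input library was set aside before the cap enrichment. In csRNA-seq, RNAs of 20 to 60 nt are selected, RNA with a 5′ monophosphate is degraded, and remaining RNA is dephosphorylated and then decapped, and a read is meant to begin at the first base of a capped RNA. The file holds 1 coverage value per position for the csRNA-seq experiment, in read 5′ ends per 10000000 reads of a library, and the input library was not analysed here. No spread between replicates could therefore be computed and no test was made. The 95% Wilson intervals given with shares are taken over recovered reads and cover counting error only, since reads amplified from 1 molecule are counted separately. Those given for codon positions are taken over listed positions instead.

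The animal mitochondrial genome is a compact circle that encodes subunits of the respiratory chain, the 2 rRNAs of the mitochondrial ribosome and a set of tRNAs, on both strands. A dedicated polymerase transcribes it into long RNAs that carry several genes, and these RNAs are cut at the tRNAs, by RNase P at the tRNA 5′ end and by RNase Z at the 3′ end. Under this tRNA punctuation model, the 5′ end of an mRNA that follows a tRNA lies at the base after that tRNA, and the cut ends carry a monophosphate. Mitochondrial mRNAs are not known to receive the 7-methylguanosine cap of nuclear transcripts.

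The annotation of the same assembly (Ensembl, BDGP6.54) has 37 genes on the 19524 bp mitochondrial genome, which are 13 protein-coding genes, 2 rRNA genes and 22 tRNA genes, and a noncoding control region of 4608 bp (mt:ori). RefSeq gives identical coordinates for 32 of the 37 genes. Strand and position were checked at the starts of 32 nuclear snRNA genes, where 100% of the coverage within 5 bp was on the annotated strand and 84.6% lay exactly on the first base. As a check of the tissue, all 6 early embryo genes examined (eve, ftz, twi, sna, zen and nullo) had coverage within 200 bp of their starts, between 16.4 and 590.5. Of 5 adult genes (the rhodopsins ninaE and Rh3 and the yolk proteins Yp1, Yp2 and Yp3), only Yp3 had any, with 13.5. In these pooled embryos, fewer cells of a type and less RNA per cell cannot be told apart.

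Every mitochondrial value was a whole number of reads of 1 of 3 libraries, of 7299457, 5931389 and 4070746 reads, for which 1 read was worth 1.37, 1.69 and 2.46. Which replicate each library is, and how 1 library was chosen at each position, is not given in the sources used here. The largest library supplied the value at 371 mitochondrial positions, the middle one at 444 and the smallest at 470. The largest library carried 59.0% of the mitochondrial coverage, against 28.3% of the coverage of the whole list. Its part in the results was not tested beyond leaving out its positions. The mitochondrial values rested on 29703 reads in total. The median position had 4 reads, and 639 positions (49.7%) had 2 or 3 reads. The authors set a minimum of 3, and since positions with 2 reads are listed, with values of 3.37 and above, it appears to apply to the scaled coverage. A position that is not listed may therefore still have had reads. The study also describes control for background input and repetitive DNA in its set of start sites, and whether this was applied to the list used here, which would bear on unlisted positions, is not given in the sources used here.

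Most mitochondrial coverage lay inside genes on the sense strand, and little of it lay within 5 bp of a gene start. tRNA genes held 36.8% of the coverage (95% Wilson interval 36.3% to 37.4%) at 79 positions. Protein-coding genes held 31.1% (30.5% to 31.6%) at 836 positions, and rRNA genes 26.4% (25.9% to 26.9%) at 192 positions. Per kilobase of sense strand, coverage was 12119 in tRNA genes, 6000 in rRNA genes and 1337 in protein-coding genes. tRNA genes were thus the smallest of these classes in length and positions and the largest in coverage. This order depended on the positions that carry values of the largest library. Without them, protein-coding genes held 44.5%, tRNA genes 31.7% and rRNA genes 17.5%. Values of the other libraries at these positions are not listed, so dropping them does not show the effect of the library itself. The order also depended on 1 gene, since without the positions inside mt:tRNA:Asn-GTT tRNA genes held 19.6%. A share of 2.60% was antisense of a gene, 3.06% lay between genes and 0.0940% in the control region. Without the positions of the largest library, 5.23% was antisense and 0.160% in the control region. Coverage was uneven, with 21 positions holding 50% of it and 403 positions holding 90%. Of the 20 strongest positions, 10 were inside tRNA genes, 7 inside rRNA genes and 3 inside protein-coding genes.

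**Figure D1:**
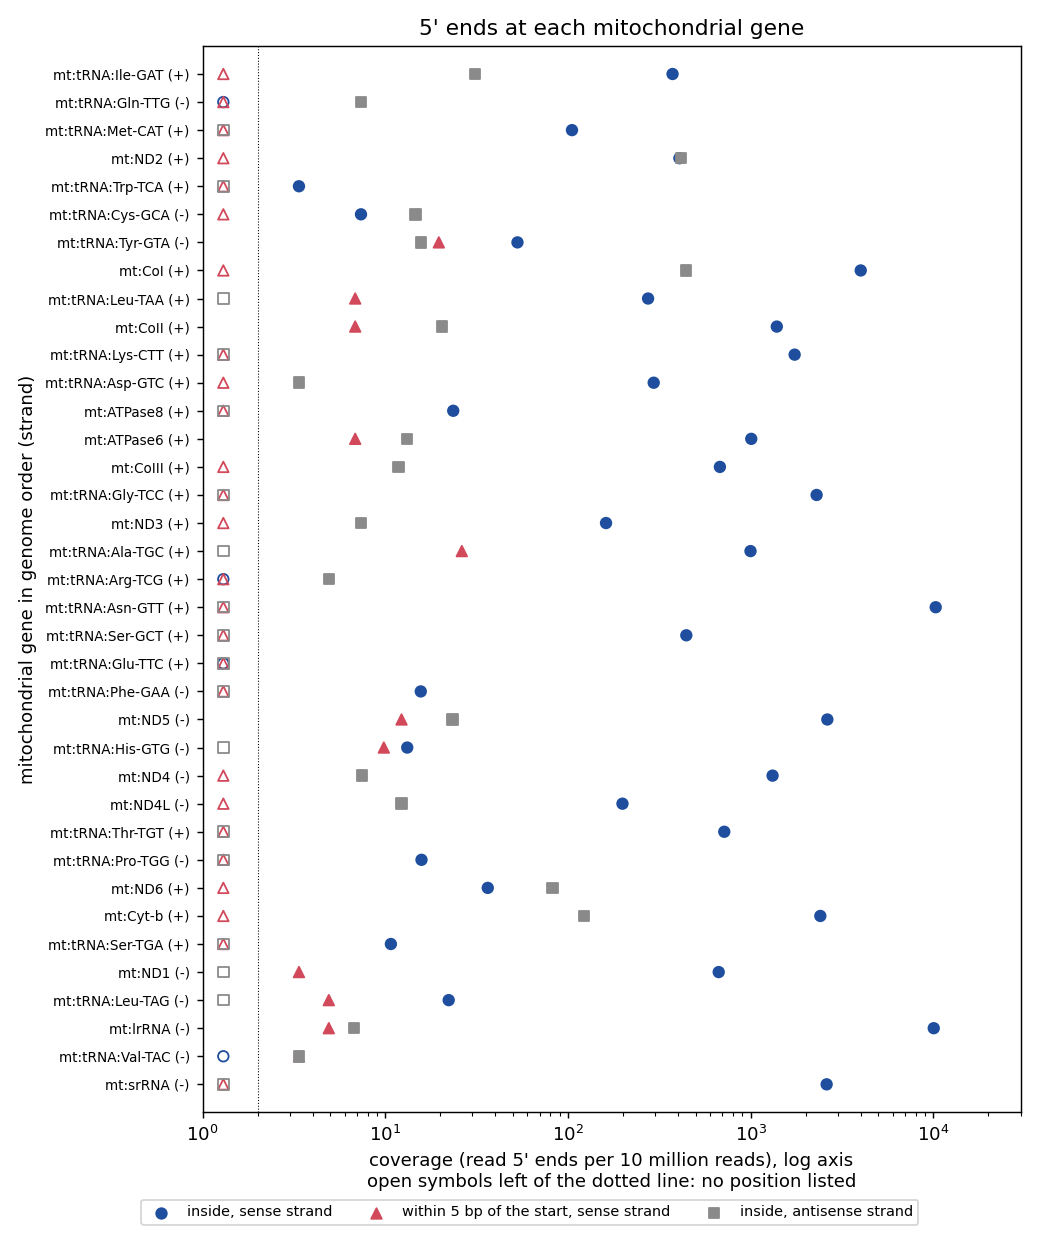
Coverage at each of the 37 mitochondrial genes in genome order, on a log axis in read 5′ ends per 10000000 reads, inside the gene on the sense strand (circles), within 5 bp of its start (triangles) and inside it on the antisense strand (squares), with open symbols where no position is listed. Sense coverage ranged up to 10304 at mt:tRNA:Asn-GTT, while coverage within 5 bp of a start did not exceed 26.3.

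The starts of the protein-coding genes were examined first, because the punctuation model places mRNA 5′ ends there. The cut ends carry a monophosphate, and csRNA-seq degrades such RNA, so counts at starts and tRNA ends cannot decide whether the model holds. All 13 annotated starts are the first base of the coding sequence. Within 5 bp of them, 4 of 13 genes had a listed 5′ end, and 2 of 13 without the positions of the largest library or at a distance of 2 bp. As background, 42.6% of all sense bases inside these genes, and 18.9% of all bases on both strands of the mitochondrial genome, had a listed 5′ end within 5 bp. The count at starts lay between these 2 backgrounds and is not a result about starts. The 4 genes together had 17 reads there, a coverage of 29.4, or 0.196% (0.123% to 0.315%) of the coverage at protein-coding genes. Per base, the windows around the starts had a coverage of 0.205, against 1.34 over the whole genes. That mean includes short runs of high coverage, such as 1956 at 7 positions of mt:ND5, so the contrast does not show that starts are depleted. The first 50 bases of the genes held 2.00% of their coverage and 5.82% of their length.

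The protein-coding genes were then divided, by the annotation alone, into those that begin within 30 bp of the end of a tRNA on the same strand and the others. The 6 genes of the first kind are mt:ND2 after mt:tRNA:Met-CAT, mt:CoII after mt:tRNA:Leu-TAA, mt:ATPase8 after mt:tRNA:Asp-GTC, mt:ND3 after mt:tRNA:Gly-TCC, mt:ND5 after mt:tRNA:His-GTG and mt:ND1 after mt:tRNA:Leu-TAG. Of these, 3 had a 5′ end within 5 bp of the start. mt:ND5 had 12.3 at 2 bp upstream, mt:CoII had 6.85 at 4 bp downstream, and mt:ND1 had 3.37 at 1 bp upstream. Among the 7 genes that do not follow such a tRNA, only mt:ATPase6 had one, 6.85 at 5 bp downstream, a base that also lies inside mt:ATPase8. These values rest on 2 to 5 reads each. The 6 genes after a tRNA had 12 reads in all near their starts and the 7 others had 5, too few for a statement on a difference, which was not tested. The base after the upstream tRNA was then taken as the start of the 6 genes after a tRNA, in place of the annotated one. Of all 13 genes, 1 then had a 5′ end within 5 bp, mt:ATPase6, whose start was not moved. No 5′ end was listed within 5 bp of that base for any of the 6 genes.

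At all of the 6 genes except mt:ND5, the highest value within 50 bp of the start was upstream of it, inside the tRNA. At 29 bp upstream of the start, mt:ND3 had 2121, mt:ATPase8 had 283 and mt:CoII had 135, and these 3 positions are in the middle of mt:tRNA:Gly-TCC, mt:tRNA:Asp-GTC and mt:tRNA:Leu-TAA. On the strand of the gene, they were the highest values within 50 bp of any protein-coding start. Because mt:CoII starts 5 bp after its tRNA, its position is 24 bases before the tRNA end, against 29 in the 2 other tRNAs. At mt:ND2 and mt:ND1 the highest values were lower, 38.4 (28 reads) at 49 bp upstream and 12.3 (5 reads) at 45 bp upstream. At mt:ND5, no position inside the tRNA was listed within 50 bp of the start. At mt:ND2, mt:ATPase8 and mt:ND3, whose starts directly follow the tRNA, no 5′ end was listed within 5 bp of the junction.

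**Figure D2:**
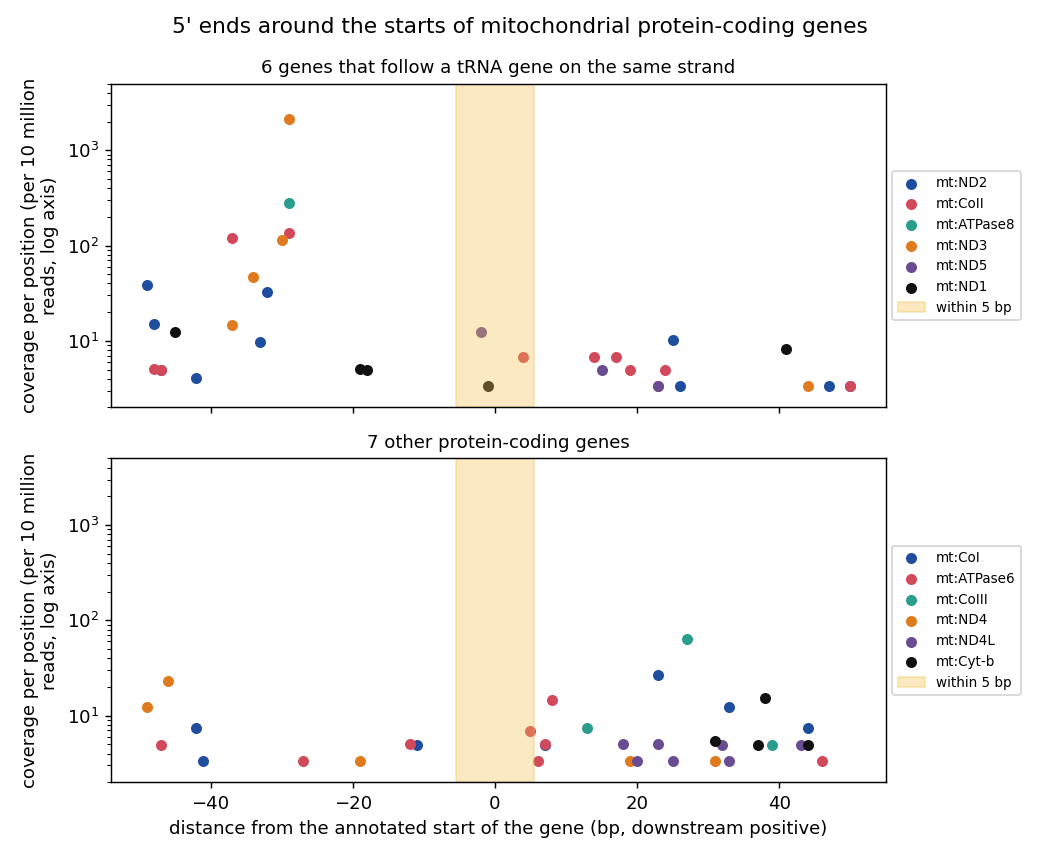
Coverage of each listed position on the strand of the gene within 50 bp of the annotated starts of protein-coding genes (log axis, read 5′ ends per 10000000 reads), for the 6 genes that follow a tRNA gene on the same strand (top) and the 7 others (bottom, with no listed position for mt:ND6). The shaded 5 bp on each side of the start hold values of at most 12.3, whereas mt:ND3, mt:ATPase8 and mt:CoII have 2121, 283 and 135 at 29 bp upstream.

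The ends of the tRNA genes themselves gave the same picture. Of 22 tRNA genes, 6 had a 5′ end within 5 bp of their first base, a count near the background, which was 30.3% of the sense bases of tRNA genes. The highest of these was mt:tRNA:Ala-TGC with 26.3, followed by mt:tRNA:Tyr-GTA with 19.7. The histidine tRNA mt:tRNA:His-GTG had its strongest position there, with 9.83 (4 reads) of its 13.2 at 1 base downstream. Inside the gene itself, only mt:tRNA:Ala-TGC, with 4.91 at 4 bases, and mt:tRNA:His-GTG had a position this close to the first base. The others had theirs only upstream of the gene, and that of mt:tRNA:Val-TAC, with 3.37, lies inside mt:srRNA. Together the 6 genes held 70.9 in these windows, or 0.399% (0.298% to 0.535%) of the coverage at tRNA genes. This share was 0.759% without the positions of the largest library, 0.221% without those of the smallest and 0.952% without mt:tRNA:Asn-GTT. The base after the tRNA 3′ end had a 5′ end within 5 bp on the same strand at 2 of 22 genes, beside the 18.9% of all bases. These were mt:tRNA:Trp-TCA with 9.17 and mt:tRNA:Val-TAC with 4.91, and mt:tRNA:Val-TAC lies directly before mt:lrRNA. The count was 0 at a distance of 2 bp, 7 at 10 bp and 1 without the positions of the smallest library.

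Inside the tRNA genes, coverage was concentrated in the middle. The interval from 30 to 45 bases downstream of the first base was chosen after the values were seen, so the following is a description. It held 95.8% of the tRNA coverage and 40 of the 79 listed positions, while it makes up 24.1% of the sense bases of tRNA genes. Without mt:tRNA:Asn-GTT the share was 91.7%. The 3 bases from 35 to 37 downstream, which fall near the anticodon loop in the middle of a tRNA, held 60.2% of the coverage and had listed positions in 9 genes. These tRNA genes are 62 to 72 bp long with a median of 66. An RNA that starts at such a position and runs to the tRNA 3′ end would be the 3′ part of the tRNA, and where the RNAs ended was not measured.

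The asparagine tRNA gene, mt:tRNA:Asn-GTT (FBgn0013701, chromosome M, 6125 to 6190, plus strand), had the highest sense coverage of all 37 genes. It had 10304 at 16 positions, which was 58.2% of the coverage inside tRNA genes. A run of 8 positions between 35 and 43 bases downstream held 10179 of this. Its strongest position had 2744 (2003 reads) at 36 bases downstream. Positions at 37, 39, 42 and 43 bases had 1118, 1811, 1388 and 1169. RefSeq starts this gene 1 base later, which shortens each of these distances by 1.

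Other tRNA genes had their coverage at 1 or 2 bases. The glycine tRNA mt:tRNA:Gly-TCC had 2297, of which 92.3% was at 36 bases downstream. The lysine tRNA mt:tRNA:Lys-CTT had 1742 (709 reads), listed at a single position 37 bases downstream. The alanine tRNA mt:tRNA:Ala-TGC had 999, with 623 at 35 bases and 339 at 46 bases. The threonine tRNA mt:tRNA:Thr-TGT had 717, with 499 at 37 bases. The serine tRNA mt:tRNA:Ser-GCT had 445 at a single position 35 bases downstream. The strongest position of these genes lay 28 to 34 bases before the tRNA end, counting the position itself. The isoleucine tRNA mt:tRNA:Ile-GAT differed, with 374 spread over 15 positions and 75.3 at the strongest. The methionine tRNA mt:tRNA:Met-CAT, with 105, was the only tRNA gene with a coverage of at least 100 whose strongest position, at 20 bases, lay outside the interval. Of the 10 tRNA genes with at least 100, the other 9 had it between 35 and 42 bases downstream.

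**Figure D3:**
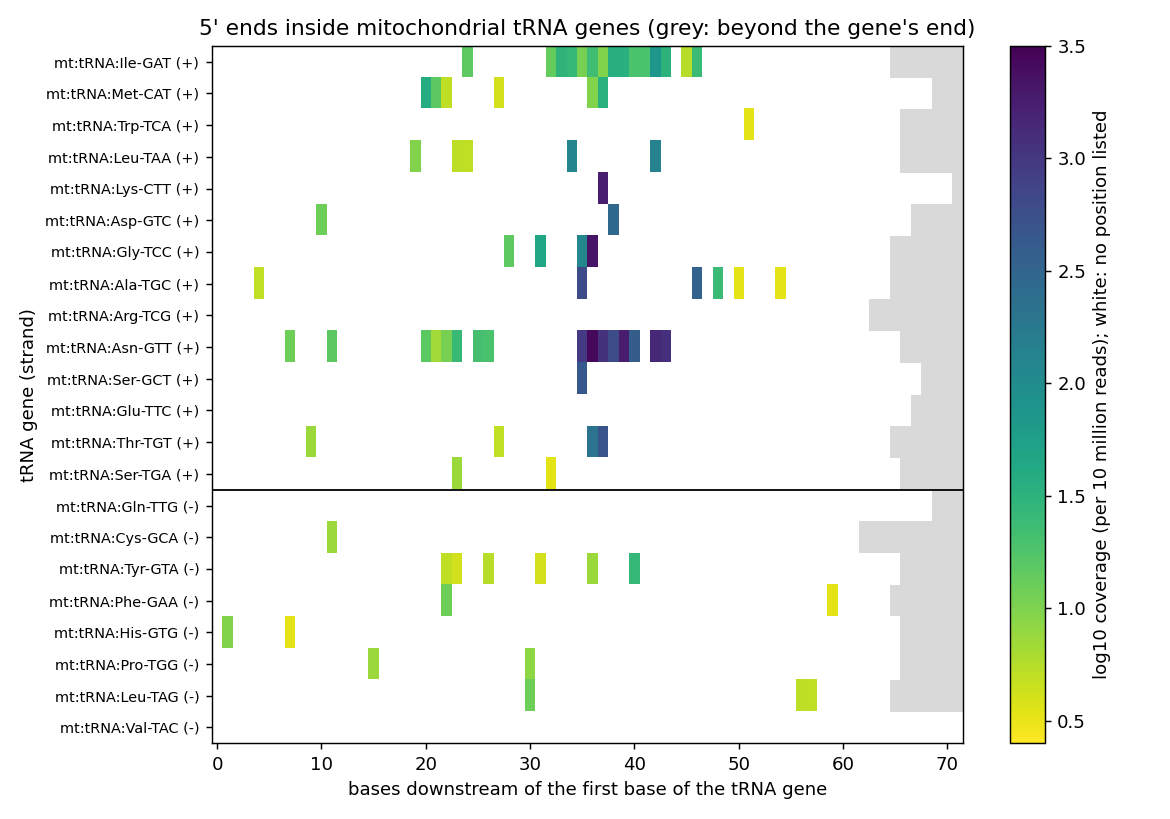
log10 coverage (read 5′ ends per 10000000 reads) at each base of the 22 mitochondrial tRNA genes, counted downstream from the first base, with the 14 plus-strand genes above the line and the 8 minus-strand genes below it. The dark cells at 35 to 43 bases are on plus-strand genes, and 4 genes have no listed position.

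Coverage at tRNA genes differed by strand. The 14 genes on the plus strand had a median sense coverage of 334, from 0 to 10304, and the 8 on the minus strand had a median of 14.4, from 0 to 53.0. The plus-strand genes held 99.3% of the tRNA coverage. All 10 genes with a coverage of at least 100 were on the plus strand. The groups overlapped, because the other 4 plus-strand genes had low values, with 10.7 at mt:tRNA:Ser-TGA, 3.37 at mt:tRNA:Trp-TCA and no listed position at mt:tRNA:Arg-TCG and mt:tRNA:Glu-TTC. On the minus strand mt:tRNA:Tyr-GTA was highest with 53.0, and mt:tRNA:Gln-TTG and mt:tRNA:Val-TAC had no listed position inside them. Protein-coding genes did not show this contrast. Their coverage per kilobase had a median of 861 over 9 plus-strand genes, from 69.4 to 2608, and of 849 over 4 minus-strand genes, from 683 to 1531. Over all positions, 57.9% (57.3% to 58.5%) of the coverage was on the plus strand, which carries 23 of the 37 genes, and the share was 46.4% without mt:tRNA:Asn-GTT.

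In the rRNA genes, both on the minus strand, coverage was near the 3′ end. The large subunit rRNA gene mt:lrRNA (chromosome M, 12735 to 14058) had 10053 at 127 positions, and the small subunit rRNA gene mt:srRNA (14131 to 14916) had 2607 at 65 positions. At mt:lrRNA, a run of 29 adjacent positions held 6082, with 1586 (1158 reads) at its strongest base, 1202 bases downstream of the start and 122 bases before the end. A second run of 5 adjacent positions, strongest at 1172 bases, held 2507. At mt:srRNA, 4 adjacent positions held 1955, or 75.0% of its coverage, with 1215 (887 reads) at 739 bases, 47 bases before the end. These runs were chosen after their values were seen. At the starts, mt:lrRNA had 4.91 within 5 bp (2 reads) although it directly follows mt:tRNA:Val-TAC, and mt:srRNA had no listed position there. Near the start the 2 genes held 0.0388% of their coverage, and 0.142% without the positions of the largest library.

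**Figure D4:**
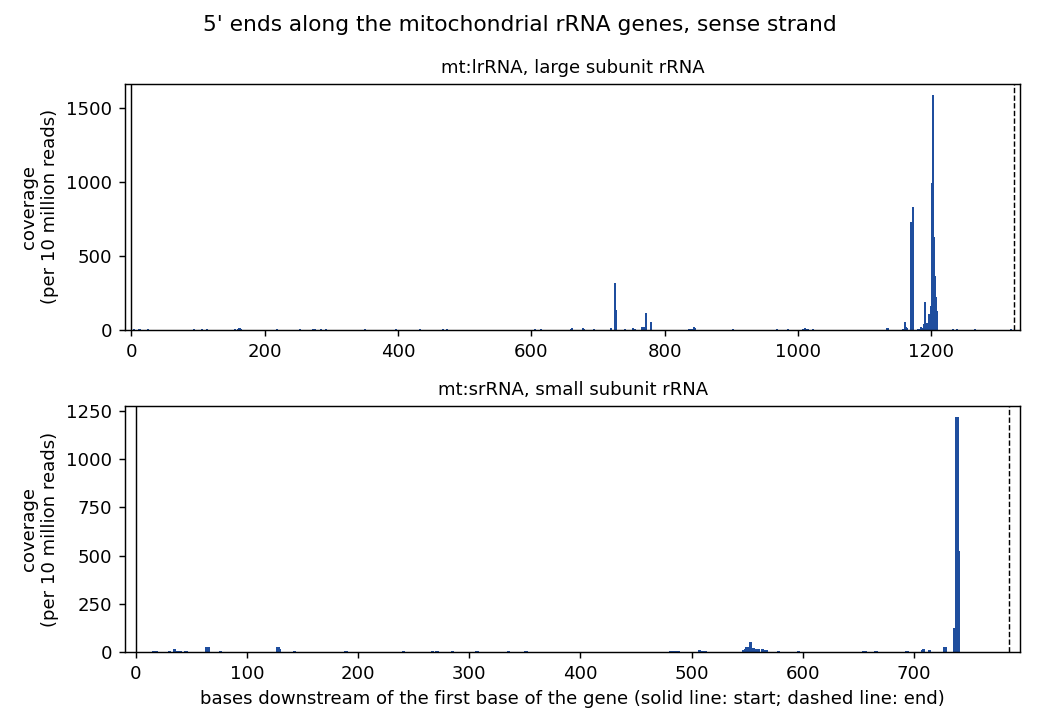
Coverage (read 5′ ends per 10000000 reads) of each listed sense position along mt:lrRNA (top) and mt:srRNA (bottom), by distance from the first base of the gene. The highest bars stand at 1202 bases (1586) in mt:lrRNA and at 739 bases (1215) in mt:srRNA, close to the end of each gene.

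Coverage inside protein-coding genes was more spread out, and its level differed between genes. In complex IV (cytochrome c oxidase, which passes electrons to oxygen), mt:CoI had the highest coverage per kilobase, 2608, with 2031 at mt:CoII and 861 at mt:CoIII. In complex III, mt:Cyt-b, the cytochrome b subunit, had 2117 per kilobase. In complex V (ATP synthase), mt:ATPase6 had 1493 and mt:ATPase8 had 145 per kilobase. In complex I (NADH dehydrogenase), mt:ND5 was highest with 1531 and mt:ND6 lowest with 69.4, and the others were mt:ND4 with 985, mt:ND1 with 712, mt:ND4L with 683, mt:ND3 with 457 and mt:ND2 with 398. The 2 genes with the fewest positions were mt:ATPase8, with 5 positions and 14 reads, and mt:ND6, with 7 positions and 21 reads. mt:ATPase8 overlaps mt:ATPase6 on the same strand, and its strongest position is 1 of the bases that both genes share.

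Within several of these genes, 1 position or a short run held much of the coverage. The strongest was in mt:ND5, with 1211 (493 reads) at 1137 bases downstream, in a run of 7 positions with 1956 in all. This single position held 46.1% of the coverage of mt:ND5. mt:CoII had 519 at 445 bases, which was 37.3% of its coverage, and mt:Cyt-b had 844 at 613 bases, 35.1%. mt:CoI had 856 at 646 bases, 21.4%. When each gene was divided into 10 equal parts, parts 5 to 7 held 62.4% of the summed coverage of the 13 genes, and 10 genes had their highest part there. The exceptions were mt:ND2, with its highest in part 3, and mt:ATPase8 and mt:CoIII, with theirs in part 10. Parts 5 to 7 were chosen after the values were seen, and mt:ND6, 1 of the 10 genes, had only 21 reads. The last 60 bases of the protein-coding genes held 2.61% of their coverage, while those of mt:srRNA held 76.2% and those of mt:lrRNA 0.139%.

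**Figure D5:**
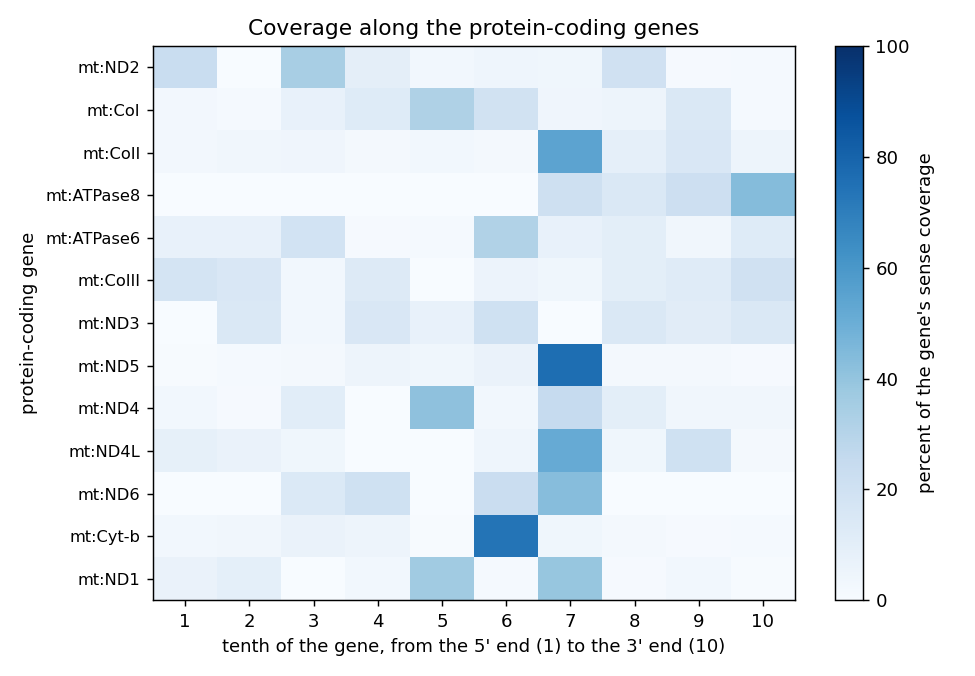
Percent of the sense coverage of each protein-coding gene in each of 10 equal parts of its length, from the 5′ end (1) to the 3′ end (10). The highest part is between 5 and 7 for 10 of the 13 genes, and part 1 holds 4.13% of the summed coverage.

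Antisense coverage was low and mostly on the minus strand. It was 1248 at 146 positions, 92.7% of it on the minus strand, opposite plus-strand genes. mt:CoI had 444 antisense against 4006 sense, and 9 positions near the strongest one, which had 113 at 279 bases from the start, held 78.0% of the antisense coverage. Antisense values at mt:ND2 were spread over 53 positions, with 416 antisense and 408 sense. mt:ND6 also had more antisense than sense coverage, 82.5 at 17 positions against 36.4 at 7 positions. At 6 of the 37 genes, antisense coverage exceeded sense coverage, and the other 4 were tRNA genes with antisense values of 3.37 to 14.6. mt:Cyt-b had 122 antisense and 2407 sense, and the 4 named protein-coding genes together had 1065 of the antisense coverage.

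The control region is AT-rich and holds the origin of replication. It had 7 listed positions over its 4608 bp, which is 23.6% of the genome, 1 on the plus strand with 3.37 and 6 on the minus strand with 41.8 in all. The highest was 12.3 (5 reads), in a group of 3 adjacent positions on the minus strand, 1136 to 1138 bp from the border with mt:srRNA. No position of the control region was among the strongest, and listed positions covered 0.0760% of its bases on both strands. The share was 7.49% of the sense bases of protein-coding genes and 0.992% of the bases antisense of a gene. How well short reads align in the control region was not tested, and unlisted positions there may still have had reads.

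The only strong signal between genes was in the 31 bp between mt:tRNA:Ile-GAT and mt:tRNA:Gln-TTG. On the minus strand, all 13 bases from 69 to 81 of chromosome M were listed, with 1385 in total (986 reads) and 597 (436 reads) at base 73. This was 6.85% of all minus-strand coverage and 94.2% of the coverage between genes. Base 73 lies 24 bases beyond the 3′ end of mt:tRNA:Gln-TTG, a minus-strand gene with no listed position of its own, and an RNA from it would run antisense into mt:tRNA:Ile-GAT after 8 bases. On the plus strand no position was listed in this interval. The other 12 positions between genes had 16.4 at most.

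Nuclear genes were measured in the same list and at the same distance of 5 bp, but from other kinds of starts. Within 5 bp of a start, mitochondrial protein-coding genes had 0.196% of their coverage, and nuclear protein-coding genes had 45.4%, counting any annotated transcript start. Of the nuclear protein-coding genes with any 5′ end (9970), 75.5% had one within 5 bp of a start, against 4 of 13 mitochondrial genes. Among the 8172 nuclear genes with at least as much coverage as mt:ATPase8, the lowest mitochondrial gene with 23.6, the share was 83.7%. Nuclear starts are annotated transcript starts, several per gene, and mitochondrial ones are first coding bases, so these shares are not on equal footing. The 4 of 13 lies between the mitochondrial backgrounds of 42.6% and 18.9% given above, and no such background was computed for nuclear genes. For tRNA genes, the interval from 30 to 45 bases held 95.8% of the mitochondrial coverage. It held 58.6% of the coverage at the 162 of 290 nuclear tRNA genes with any listed position. The interval was chosen after the mitochondrial values were seen, which by itself favours a higher mitochondrial share. No conclusion is therefore drawn from the contrast between these shares. Nuclear tRNA genes have near-identical copies, whose reads may be shared or lost in the alignment. No test was made of these differences, because 1 value per position gives no error between samples.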

How the data were processed

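csRNA-seq was done on embryos of 1 condition (3 libraries) with 1 input library. After 3′ adapter trimming, the authors used STAR 2.7.9a for alignment to dm6 and HOMER 4.11 for listing read 5′ ends, with a minimum stated as 3 reads. Whether the list was also filtered against the input library is not given in the sources used here. Versions are from the submitters' processing notes. The deposited coverage (signal) is scaled to 10000000 reads per library. The deduplicated, windowed and log2 lists were not used here, because they repeat or thin the same values.

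Library sizes were recovered as the steps of the coverage values, and 232302 of 232302 values were whole reads of 1 library (tolerance 1e-06). Positions were placed against Ensembl (BDGP6.54), whose coordinates are those of dm6, in the order sense tRNA, rRNA, protein-coding gene, antisense, control region, between genes. Recovery and placement were tested on simulated data (19654 of 19654 values and 2000 of 2000 distances right). All mitochondrial genes are members. Values are given for each protein-coding and rRNA gene, for the 5 tRNA genes of highest sense coverage, for those with the highest share at their start and for the 10 strongest positions. Other tRNA genes and runs named were chosen after their values were seen. The members, lists and intervals were chosen with earlier results of these data known. Reads that cross base 1 of the linear reference, and reads shared with nuclear copies of mitochondrial DNA, may be lost, which was not tested. No genome sequence was used here, so the bases at the 5′ ends were not analysed. Python 3.11.15, NumPy 2.4.6, pandas 2.3.3 and matplotlib 3.10.9 were used.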

Additional observations from a re-analysis of the deposited data

How the results depend on the processing

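Of 89 values under alternative settings, 34 moved by less than the counting interval or by less than 1.5 times for counts, and 55 moved by more. The interval over reads is narrow. The result on the middle of tRNA genes and the setting without mt:tRNA:Asn-GTT were added after seeing the data.
With at least 4 reads per position the shares were 39.0% tRNA, 28.6% protein-coding, 27.3% rRNA, 1.72% antisense and 0.0486% control region. In reads in place of coverage, protein-coding genes held 29.0%, rRNA genes 28.1% and antisense positions 2.23%. Without the strongest position, tRNA genes held 33.0%, protein-coding genes 33.0%, rRNA genes 27.9% and the plus strand 55.4%. Without positions of the largest library, tRNA genes held 31.7%, protein-coding genes 44.5%, rRNA genes 17.5%, antisense positions 5.23% and the control region 0.160%. Without those of the middle library, tRNA genes held 40.01%, protein-coding genes 28.1%, antisense positions 1.86% and the plus strand 58.6%. Without those of the smallest library, tRNA genes held 35.8%, protein-coding genes 27.0%, rRNA genes 31.0%, antisense positions 2.00% and the plus strand 57.2%. Without mt:tRNA:Asn-GTT, tRNA genes held 19.6%, protein-coding genes 39.6%, rRNA genes 33.5%, antisense positions 3.31% and the plus strand 46.4%.
The protein-coding genes with a 5′ end near the start numbered 2 at a distance of 2 bp and 2 without the largest library. With the base after the upstream tRNA as the start, the count was 1, mt:ATPase6, whose start was not moved. The share of protein-coding coverage near the start was 0.105% at 2 bp and 0.384% at 10 bp. For tRNA genes it was 0.223% at 2 bp, 0.877% at 10 bp, 0.759% without the largest library, 0.221% without the smallest and 0.952% without mt:tRNA:Asn-GTT. For rRNA genes it was 0 at 2 bp, with at least 4 reads and without the smallest library, and 0.142% without the largest. The tRNA 3′ ends followed by a 5′ end numbered 0 at 2 bp and with at least 4 reads, 7 at 10 bp and 1 without the smallest library. The share of tRNA coverage in the middle of the gene was 96.3% with at least 4 reads, 95.04% without the strongest position, 90.5%, 98.2% and 95.2% without the largest, middle and smallest library, and 91.7% without mt:tRNA:Asn-GTT. Apart from the removals themselves, the cause was not tested.
No paired analysis was possible because each position has 1 value for the whole experiment, and for the same reason no replicate could be left out. The settings without a library drop the positions that carry its values, and do not show the effect of the library itself.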

Other observations

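The 5′ ends inside the 13 protein-coding genes were also counted by codon position, with the first base of the annotated coding sequence as position 1. Of these 5′ ends, 237 (28.3%, 95% Wilson interval 25.3% to 31.4%) lay on codon position 1, 319 (38.1%, 34.8% to 41.4%) on position 2 and 282 (33.7%, 30.5% to 36.9%) on position 3. By coverage, the shares were 29.9%, 48.3% and 21.8%. Neighbouring positions of a run are not independent, a few bases belong to overlapping genes and were counted in each, and strong single positions such as those of mt:ND5 and mt:CoI weigh heavily in the shares by coverage.

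Positions on the same strand at most 3 bp apart formed 707 runs, of which 479 were single positions. The 10 runs with the highest coverage held 62.8% of the mitochondrial coverage. They were 3 in tRNA genes (for asparagine, glycine and lysine), 3 in rRNA genes, 3 in protein-coding genes (mt:ND5, mt:CoI and mt:Cyt-b) and the run before mt:tRNA:Ile-GAT on the minus strand. The longest of these was in mt:lrRNA, with 29 of 29 adjacent bases listed and a coverage of 6082.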
